A study of Oryza sativa Japonica Group and Oryza sativa Indica Group with 10 samples.

Results

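Chlorophyll is built from 5-aminolevulinate through porphyrins, and its own branch opens where magnesium chelatase inserts magnesium into protoporphyrin IX, a precursor that the heme branch also uses. Protochlorophyllide is then reduced in the light to chlorophyllide, part of which is oxygenated to the b form, and a phytyl tail is attached at the end. In rice the pathway runs in plastids and is most active in greening leaves, while the young panicle holds mainly developing floral tissue.

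The genes described here belong to some, not all, of the steps from magnesium chelatase to the attached tail. CHLH and CHL9 (also listed as CHLI) encode magnesium chelatase subunits, and PORA and PORB encode light-dependent protochlorophyllide oxidoreductases. CAO encodes chlorophyllide a oxygenase, CHLP the geranylgeranyl reductase that makes the phytyl chain, and CHLG the chlorophyll synthase that joins chain and ring. They were found by symbol or synonym among the probe sets that the array annotation pairs with exactly 1 gene. The 7 genes had 8 probe sets, CHLH having 2, out of 22436 such probe sets of 17905 genes and 57258 rice probe sets in all. The RefSeq annotation places CHLH (LOC4332690) and CHL9 (LOC4333259) on chromosome 3, PORA (LOC4337415) on chromosome 4, PORB (LOC4349004) and CAO (LOC4349433) on chromosome 10, CHLP (LOC4330711) on chromosome 2 and CHLG (LOC4338498) on chromosome 5.

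Young panicles 2 cm long were taken from 2 rice cultivars, Nipponbare (ssp. japonica) and 93-11 (ssp. indica), with 5 biological replicates each, and their total RNA was hybridized as biotin-labelled cRNA to the Affymetrix rice expression array. No treatment, transgene or mutation is named for either cultivar. The sources used here give no plant age, light or hour of harvest, so cultivar and any difference in them cannot be told apart. The series asks how sequence and expression differences between the cultivars can be read from such arrays. Most probe sets of the array were designed on japonica sequence, so fewer transcripts and mismatched probes in 93-11 cannot be told apart from these values. Nor can fewer cells of a type and less RNA per cell, since whole panicles were used.

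The arrays differed in brightness. The trimmed mean signal was 277 ± 62.4 (SD, n = 5) in Nipponbare, from 205 to 377, and 213 ± 18.5 in 93-11, from 196 to 235 (two-sided exact permutation test, p = 0.0317). Differences of the members between cultivars are therefore given on the deposited signals and again with all arrays brought to 1 trimmed mean. Over all probe sets this scaling took the median of the log2 differences, 93-11 minus Nipponbare, from -0.16 to 0.03. A probe set was counted as above the level threshold where the mean log10 signal of the cultivar's replicates exceeded 2.5. Of 18 probe sets of genes typical of young panicles, 15 were above it in both cultivars as deposited, and of 10 for seed storage proteins 1 was, that of GLB1. The log2 ratios of 3′ to 5′ probe sets of actin, cyclophilin and Gapdh overlapped between cultivars (exact permutation test, p = 0.913, 0.762 and 0.175).

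As deposited, 5 of the 8 probe sets were lower in 93-11, 0 were higher and 3 did not pass the test (limma, Benjamini-Hochberg adjustment over all 57258 probe sets, threshold 0.05). Of all probe sets, 11.9% were called lower and 1.66% higher, and of those with a mean log10 signal above 2.5, 15.3% were called lower. After scaling, 5 were lower, 1 was higher (CHLG) and 2 did not pass, against 9.21% lower and 7.84% higher of all probe sets and 10.4% lower of the strong ones. Higher calls were more frequent among brighter probe sets. In the scaled fit limited to a mean log10 signal above 2.0, 3968 of 18299 were called higher and 2686 lower, so 7.84% understates the share for CHLG. The genes were chosen with earlier results of these data known, so these shares are a description. In the 5 lower probe sets, those of CHLH (1 of 2), PORA, PORB, CAO and CHLP, the arrays of the cultivars did not overlap on either scale, a separation in this direction that 10.4% of all probe sets had as deposited and 8.02% after scaling. The median log2 difference of the 8 probe sets was -1.18 as deposited and -0.84 after scaling. In level, 4 of the 8 were above the threshold in both cultivars and 1, CHL9, in neither.

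**Figure D1:**
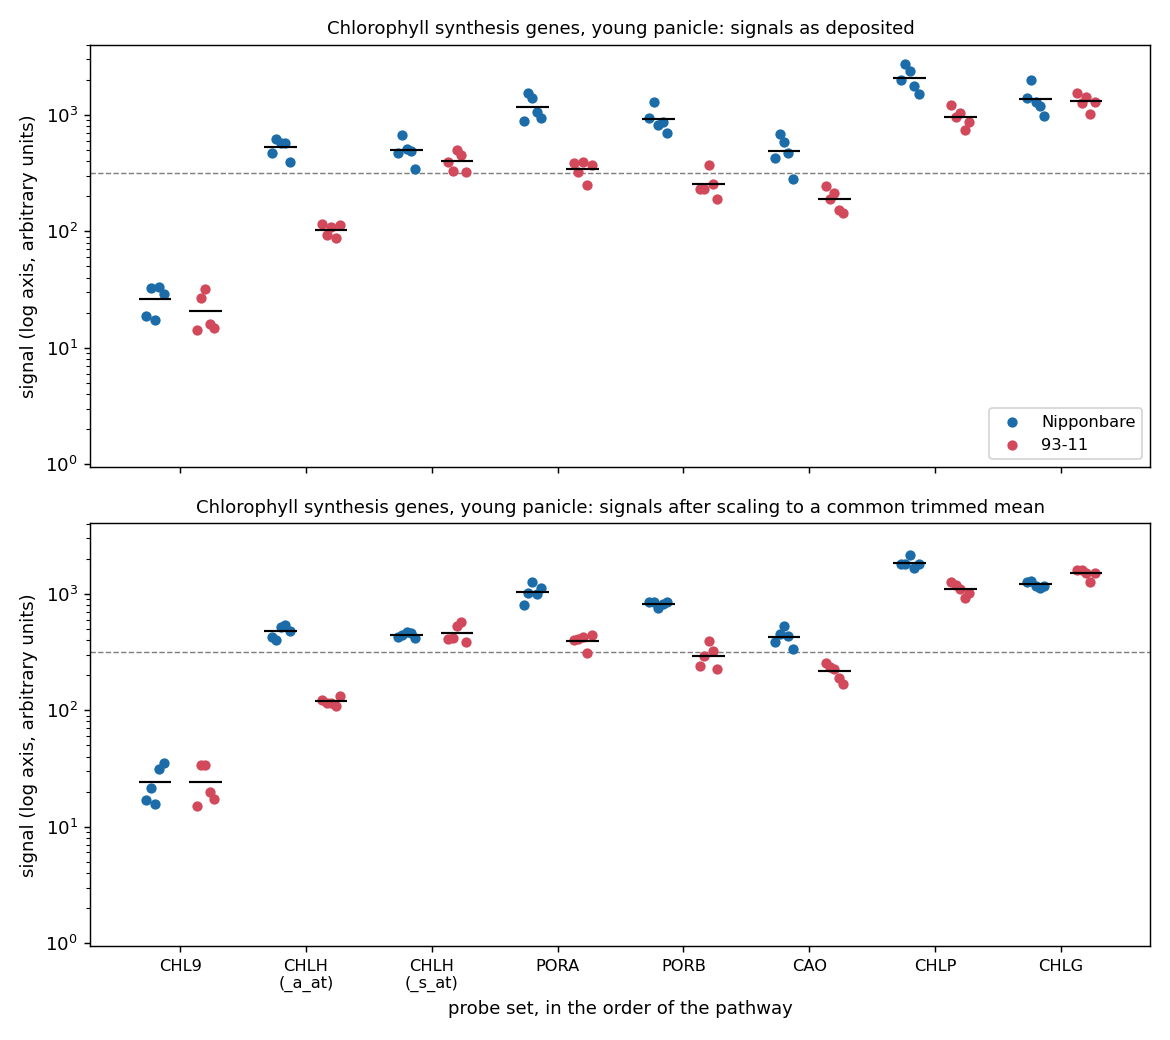
Signal of each probe set on each array (log axis), as deposited above and scaled to a common trimmed mean below, with Nipponbare in blue and 93-11 in red, a black bar at the mean of 5 arrays and a dashed line at log10 2.5. The arrays of the cultivars stand apart for 1 CHLH probe set, PORA, PORB, CAO and CHLP, and CHL9 lies far below the dashed line in both.

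Magnesium chelatase opens the branch, and its subunit genes did not give 1 picture. CHLH encodes the large subunit, which binds the porphyrin. Its _a_at probe set read 473, 621, 576, 579 and 398 on Nipponbare replicates 1 to 5. On 93-11 replicates 1 to 5 it read 117, 92.8, 108, 87.3 and 113. Every 93-11 array was below every Nipponbare array. The mean of 529 ± 91.5 (SD, n = 5) in Nipponbare was 5.11 times the 104 ± 12.9 in 93-11, a log2 difference of -2.18 (SE 0.17, limma adjusted p = 8.67e-08). After scaling the means were 474 ± 59.2 and 119 ± 8.98 and the log2 difference was -1.85 (SE 0.11, limma adjusted p = 2.15e-08), the largest in size of the 8 probe sets on both scales.

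The other CHLH probe set, _s_at, read 469.6, 674, 514, 489 and 345 in Nipponbare and 395, 331, 499.7, 456 and 324 in 93-11. These values overlapped, and 10 of 10 arrays were above the level threshold. The log2 difference was -0.29 as deposited (95% interval -0.69 to 0.11, limma adjusted p = 0.391) and 0.05 after scaling (-0.19 to 0.30, limma adjusted p = 0.83), so its sign turned with the scaling. The suffix _s_at marks probes shared by several transcripts and _a_at probes shared by alternative transcripts of 1 gene. Within an array, the log2 ratio of the first probe set to the second was 0.10 ± 0.15 in Nipponbare (-0.12 to 0.24) and -1.94 ± 0.35 in 93-11 (-2.38 to -1.52). The ratios did not overlap and differed by -2.04 (two-sided exact permutation test, n = 5 and 5, p = 0.00794, the smallest the design allows). This ratio was computed after the values of both probe sets had been seen. The difference of CHLH between cultivars thus depended on the probe set read, and the cause was not tested.

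CHL9 encodes the small ATPase subunit of the chelatase. Its probe set read 18.9, 32.9, 17.3, 33.2 and 29.2 in Nipponbare and 14.4, 27.0, 31.8, 15.97 and 14.7 in 93-11. No array reached the level threshold and the cultivars overlapped. The log2 difference was -0.21 as deposited (95% interval -0.68 to 0.26, limma adjusted p = 0.63) and -0.0042 after scaling (-0.46 to 0.45, limma adjusted p = 0.994). The 16 added before taking logs is close to these signals and shrinks their differences, so those intervals do not bound a difference of CHL9. With 1 added instead, the deposited log2 difference was -0.35 (limma adjusted p = 0.667).

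Both genes for the light-dependent reduction were lower in 93-11. PORA, which in angiosperms is best known from seedlings greening after darkness, gave 882, 1547, 1402, 1067 and 935 in Nipponbare and 387, 324, 395, 249 and 374 in 93-11. The highest 93-11 array stayed below the lowest Nipponbare array by more than the whole range of 93-11. The mean fell from 1167 ± 294 in Nipponbare to 346 ± 60.7 in 93-11 (n = 5 each, 3.37 times lower), a log2 difference of -1.69 (SE 0.19, limma adjusted p = 6.84e-06). Scaled, the means were 1038 ± 174 and 396 ± 50.2 and the log2 difference -1.35 (SE 0.13, limma adjusted p = 3.51e-06). As deposited, 5 Nipponbare and 4 93-11 arrays were above the level threshold, replicate 4 of 93-11 being the exception.

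PORB, the reductase gene that in angiosperms also works in green tissue, was read by an _x_at probe set, a suffix for probes of which some may match other sequences. It gave 944, 1301, 826, 868 and 703 in Nipponbare. In 93-11 it gave 232, 232, 369.9, 257 and 192, with replicate 3 above the rest and all below Nipponbare. The means of 928 ± 226 and 256 ± 67.6 differed 3.62 times, or by -1.80 on the log2 scale (SE 0.20, limma adjusted p = 5.23e-06). After scaling the Nipponbare arrays drew together, at 820 ± 43.3 against 295 ± 67.5 in 93-11, and the log2 difference was -1.45 (SE 0.13, limma adjusted p = 2.17e-06). All 5 Nipponbare arrays and 1 93-11 array were above the level threshold as deposited, and 2 93-11 arrays were after scaling.

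CAO makes chlorophyllide b, the source of the chlorophyll b held by light-harvesting proteins, and is also listed under the name Lls1. Its _a_at probe set read 427, 689, 583, 466 and 279 in Nipponbare and 245, 188.5, 213, 152 and 143 in 93-11. The cultivars did not overlap, although the lowest Nipponbare array, replicate 5, lay close to the highest 93-11 array, replicate 1. The mean fell from 489 ± 156 to 188 ± 42.3 (2.60 times), a log2 difference of -1.27 (SE 0.23, limma adjusted p = 0.000823). Scaled, it was 426 ± 72.2 against 215 ± 35.3, a log2 difference of -0.93 (SE 0.14, limma adjusted p = 0.000263). No 93-11 array was above the level threshold on either scale, while 4 Nipponbare arrays were as deposited and 5 after scaling.

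CHLP supplies phytyl chains to chlorophyll and to tocopherols. Its probe set read 1995, 2745, 2388, 1784 and 1509.7 in Nipponbare and 1207.5, 953, 1036, 737 and 864 in 93-11. All 10 arrays were above the level threshold, and the cultivars did not overlap. The means were 2084 ± 489 and 960 ± 177, 2.17 times apart, and the log2 difference was -1.09 (SE 0.18, limma adjusted p = 0.000492). After scaling it was -0.74 (SE 0.10, limma adjusted p = 0.0001), with means of 1845 ± 186 and 1099 ± 135, the least in size among the 5 lower probe sets on both scales.

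CHLG, which attaches the chain in the last step, did not share the lower signal. Its probe set read 1401, 1980.2, 1285, 1189 and 978 in Nipponbare. In 93-11 it read 1543, 1269.9, 1411, 1019.8 and 1279, inside the range of Nipponbare. The means of 1366 ± 376 and 1304 ± 194 differed by -0.04 on the log2 scale as deposited (95% interval -0.43 to 0.35, limma adjusted p = 0.93). After scaling the sign turned, with 1200 ± 73.0 in Nipponbare and 1496 ± 134 in 93-11, and CHLG was called higher by 0.31 (SE 0.08, 95% interval 0.14 to 0.49, limma adjusted p = 0.017). With the arrays scaled to the hybridization controls instead, the difference was 0.14 and was not called (limma adjusted p = 0.741). Its scaled arrays still overlapped, since 93-11 replicate 4 at 1272 was below Nipponbare replicate 2 at 1287.

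**Figure D2:**
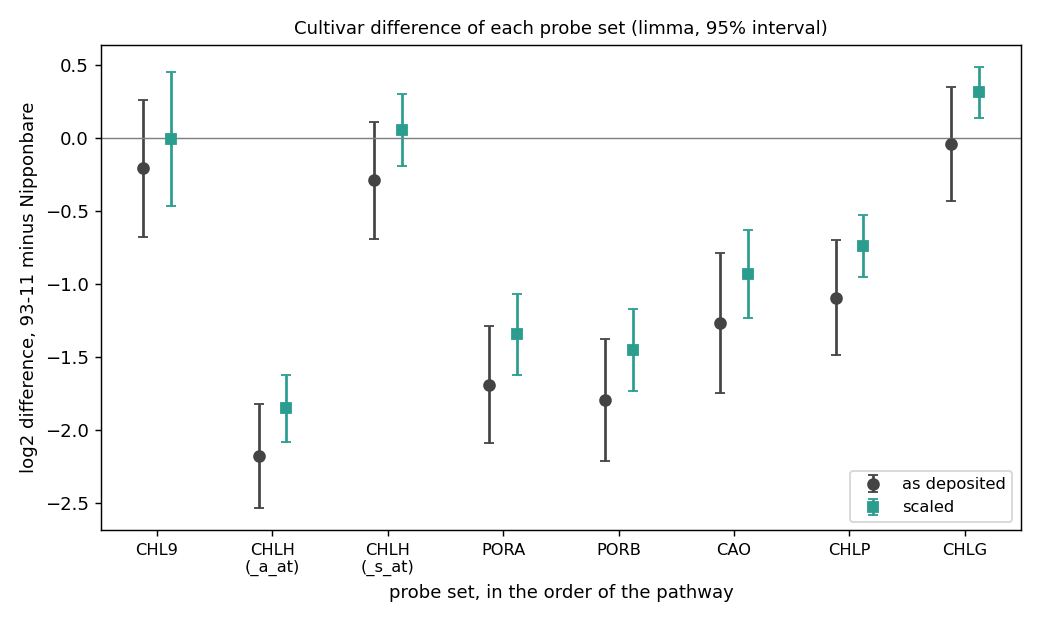
Log2 difference of each probe set, 93-11 minus Nipponbare, with its 95% limma interval, as deposited (circles) and scaled (squares), ordered along the pathway. The 5 probe sets called lower lie below 0 on both scales, from -2.18 for 1 CHLH probe set to -1.09 for CHLP as deposited. CHLG lies at -0.04 as deposited and at 0.31, called higher, after scaling.

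Part of the deposited spread within Nipponbare was common to the genes and went with the brightness of the whole array. As deposited, replicate 2, the brightest array, gave the highest Nipponbare value for 7 of the 8 probe sets, and replicate 5, the dimmest Nipponbare array, gave the lowest for 6. After scaling these numbers were 1 and 2. In 93-11, replicate 4 gave the lowest value for 4 of 8 probe sets on both scales. No such counts were made over all probe sets, so nothing particular to these genes is read from them.

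Whether the signals of the steps changed by unequal amounts was read from the log2 ratio of 2 genes within 1 array. No scaling of whole arrays can alter this ratio, but mismatched probes in 93-11 can. A changed ratio is therefore read as a change of signals, not of transcripts. The ratio of the 2 probe sets of CHLH, a single gene, itself changed by -2.04. CHLH was represented by its _s_at probe set, which had the higher mean over all 10 arrays but was the brighter only in 93-11, the probe set that did not pass the test between cultivars. Signals of different probe sets have no common scale, so only the change of a ratio between cultivars was used and not its size. Of the 21 pairs, 12 differed between cultivars (two-sided exact permutation test over all divisions of the 10 arrays, adjusted over 21 pairs). Of these 12 pairs, 2 include CHL9 and 10 do not. In 11 of the 12 the ratios did not overlap and p was 0.00794, the smallest possible (adjusted p = 0.0152). No such count was made for pairs of other probe sets, so the 12 cannot be set against a share over the array. The 21 pairs reuse 7 genes, so they are not independent results.

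The signal of CHLG stood apart from those of 4 of the genes before it. The ratio of PORB to CHLG changed by -1.82 on the log2 scale, from -0.55 ± 0.08 (SD, n = 5) in Nipponbare to -2.37 ± 0.39 in 93-11. That of PORA to CHLG changed by -1.70, that of CAO to CHLG by -1.30 and that of CHLP to CHLG by -1.07 (exact permutation test, adjusted p = 0.0152 each). All 4 ratios were lower in every 93-11 array than in any Nipponbare array.

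Among the lower genes, the signals of both reductase genes fell further than that of CHLP. The ratio of PORA to CHLP changed by -0.63 (exact permutation test, adjusted p = 0.0152) and did not overlap. The ratio of PORB to CHLP changed by -0.75 (exact permutation test, adjusted p = 0.0417), with overlapping arrays, and the adjusted p rose above 0.05 without any 1 of 7 of the 10 arrays (0.0278 to 0.0833 over all 10). PORA and PORB were not told apart: their ratio changed by 0.12, from 0.32 ± 0.31 to 0.45 ± 0.42 (exact permutation test, p = 0.611). Neither did the ratios of PORA to CAO (-0.40, adjusted p = 0.0778), PORB to CAO (-0.52, adjusted p = 0.0641) and CAO to CHLP (-0.23, adjusted p = 0.108) pass the exact permutation test. When 1 array was left out, each stayed above the threshold in 9 of 10 cases in the same test. The exceptions were PORA to CAO without 93-11 replicate 5 (adjusted p = 0.0278), PORB to CAO without Nipponbare replicate 3 (0.0385) and CAO to CHLP without Nipponbare replicate 5 (0.0167). The highest adjusted p without 1 array was 0.146, 0.128 and 0.216 for these pairs.

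Pairs with CHLH depended on the probe set. With the _s_at probe set, CHLH rose against PORA by 1.44, PORB by 1.56, CAO by 1.04 and CHLP by 0.81 (exact permutation test, adjusted p = 0.0152 each), and its ratio to CHLG changed by -0.26 (adjusted p = 0.204). With the mean over both CHLH probe sets the changes against PORA and PORB were 0.42 and 0.54 (exact permutation test, adjusted p = 0.0333 each). On the same mean, those against CAO and CHLP were 0.02 and -0.22 (adjusted p = 0.984 and 0.185) and that against CHLG was -1.28 (adjusted p = 0.0208). With the _a_at probe set, a setting added after the values had been seen, CHLH fell against PORA by 0.61, CAO by 1.003, CHLP by 1.24 and CHLG by 2.30 (exact permutation test, adjusted p = 0.0139 each). Its ratio to PORB then changed by -0.48 (adjusted p = 0.0882). The sign of the change of CHLH against PORA, PORB, CAO and CHLP thus turned with the probe set, and only against CHLG was it negative by every choice. The ratios of CHL9 to PORA and PORB also passed (adjusted p = 0.0152 each), but CHL9, at 26.3 ± 7.66 and 20.8 ± 8.07, was near the median signal of all probe sets (29.3 ± 6.68 in Nipponbare and 20.8 ± 0.92 in 93-11), so no change of CHL9 is read from them.

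**Figure D3:**
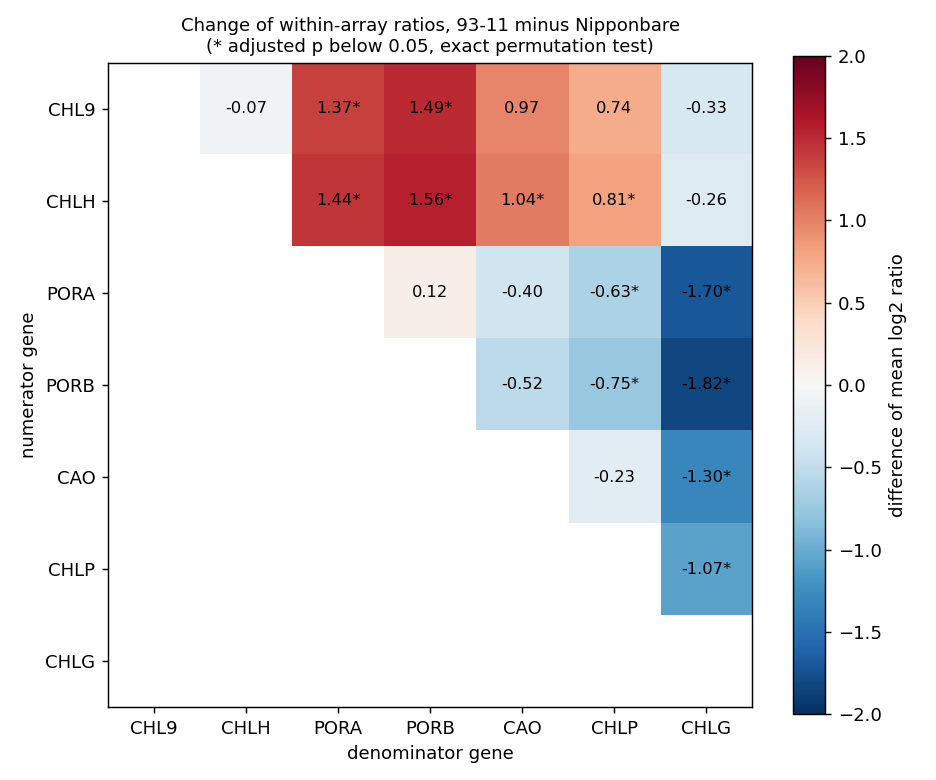
Change of the mean within-array log2 ratio, 93-11 minus Nipponbare, for each pair of genes shown once, CHLH by its _s_at probe set (numerator down the side, denominator along the bottom, red higher and blue lower in 93-11). Asterisks mark adjusted p below 0.05 in the exact permutation test, and the 4 ratios of PORA, PORB, CAO and CHLP to CHLG range from -1.82 to -1.07.

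Beyond the members, 14 further genes of chlorophyll and heme metabolism, 2 of them regulators, with 20 probe sets were read. As deposited 8 probe sets were lower, 0 higher and 12 did not pass, with a median log2 difference of -0.38 (-0.16 over all probe sets, of which 11.9% were lower). After scaling 5 were lower, 2 higher and 13 did not pass, with a median of -0.04 (0.03 over all probe sets, of which 9.21% were lower and 7.84% higher). On each scale 3 of the lower calls came from the 5 probe sets of the regulators GLK1 and GLK2, so the calls are not as many genes. The other lower calls after scaling were 1 for 5-aminolevulinate and 1 for the magnesium branch. The 6 probe sets for the chlorophyll cycle and chlorophyll breakdown had 0 lower calls on either scale, too few probe sets to set against those shares.

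Upstream of the chelatase, GSA, which forms 5-aminolevulinate, changed most. Its brighter probe set fell from 1009 ± 217 to 425 ± 54.2 (log2 difference -1.20, limma adjusted p = 6.73e-05) and by 0.85 after scaling (limma adjusted p = 6.2e-06). Its other probe set had mean signals of 7.36 and 9.01 and was not called. GluTR, the glutamyl-tRNA reductase that precedes GSA, HEMB of the porphyrin steps and PPOX1, which makes protoporphyrin IX, were lower as deposited by log2 differences of -0.54, -0.60 and -0.58 (limma adjusted p = 0.0309, 0.0165 and 0.0255). None of these 3 passed after scaling, at -0.20, -0.25 and -0.23 (limma adjusted p = 0.16, 0.0503 and 0.0622). CHLD, the remaining subunit of magnesium chelatase, was lower on both scales, by -0.76 (limma adjusted p = 0.00676) and -0.42 (limma adjusted p = 0.00293).

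The regulators GLK1 and GLK2, GARP transcription factors that in Arabidopsis and rice activate chlorophyll synthesis and light-harvesting genes, were lower as well. GLK1 read 417, 525, 501, 361 and 338 in Nipponbare and 94.1, 107.5, 120.3, 92.7 and 75.7 in 93-11, with no overlap. Its log2 difference was -1.96 as deposited and -1.63 after scaling (limma adjusted p = 6.71e-07 and 5.89e-07). GLK2 was lower by its brightest probe set, an _at set, at 1243 ± 294 against 449 ± 149 (log2 difference -1.46, limma adjusted p = 0.000185, and -1.12 after scaling, limma adjusted p = 0.000234). Of its 3 other probe sets 1, an _a_at set, was lower too (-1.31, limma adjusted p = 0.00174) and 2, with mean signals of 30.8 to 45.6, were not called.

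HO2, of the heme oxygenase family, and NYC1, a chlorophyll b reductase that starts the return of chlorophyll b to the a form, were higher only after scaling (0.30 and 0.57, limma adjusted p = 0.0286 and 0.0119). As deposited their log2 differences were -0.04 and 0.23 and neither passed.

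**Figure D4:**
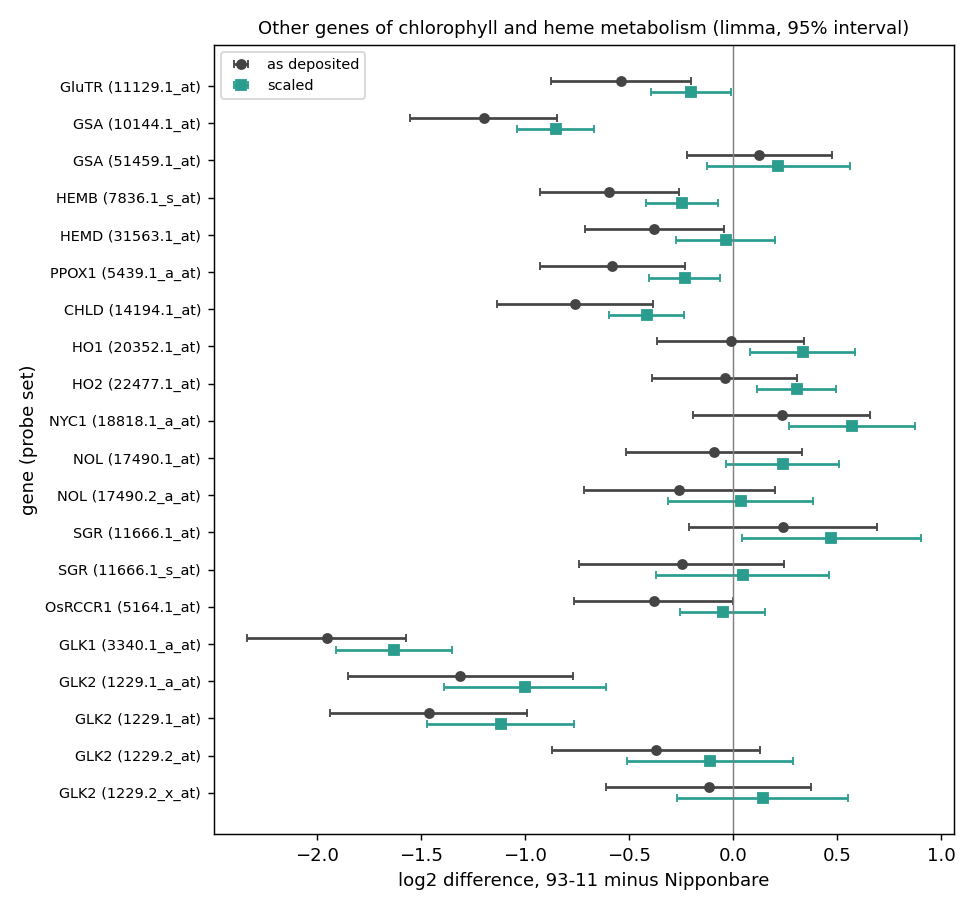
Log2 difference, 93-11 minus Nipponbare, with its 95% limma interval for the 20 probe sets of 14 other genes of chlorophyll and heme metabolism, 2 of them regulators, as deposited (circles) and scaled (squares). GLK1, 2 of 4 GLK2 probe sets, 1 of 2 GSA probe sets and CHLD are called lower on both scales, GLK1 lowest at -1.96 as deposited.

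Part of the genes of green tissue were lower in 93-11 too. Of 18 probe sets of 9 such genes, 10 were lower, 0 higher and 8 not called as deposited, against 11.9% lower of all probe sets. After scaling 10 were lower, 1 higher and 7 not called, against 9.21% lower and 7.84% higher. The list was chosen with earlier results of these data known, so these shares are not an independent comparison. On both scales the 10 include 4 probe sets of rca and 2 of CAB2R, so they are not 10 genes. Of the 18, 12 were above the level threshold in neither cultivar. Their median log2 difference was -0.77 as deposited and -0.43 after scaling. Their summed signal, most of which in Nipponbare came from the 2 probe sets of CAB2R, ran from 16181 to 26387 in Nipponbare and from 1833 to 4834 in 93-11, and from 14646 to 19788 and 2296 to 5696 after scaling. CAB2R encodes a light-harvesting chlorophyll a/b-binding protein. As deposited it fell from 4149 ± 999 to 178 ± 174 by its _s_at probe set (log2 difference -4.78, limma adjusted p = 2.25e-07). By its _a_at probe set it fell from 8948 ± 2044 to 573 ± 573 (-4.39, limma adjusted p = 2.21e-06). The log2 differences after scaling were -4.45 and -4.04 (limma adjusted p = 2.33e-06 and 1.79e-05). In the deposited signals, replicate 5 of 93-11, at 477.5 and 1539, was far above the other 93-11 arrays (52.0 to 177 and 168 to 645), and without it the 93-11 means were 104 and 332. An OsrbcS probe set, for the Rubisco small subunit, was the 1 higher after scaling, from 47.8 ± 12.3 to 101.3 ± 25.9 (0.87, limma adjusted p = 0.00679), and all 5 OsrbcS and RBCS1 probe sets had means of at most 217 in both cultivars. The part of the green tissue genes in the differences of the members was not tested.

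Across the 10 scaled arrays, the named genes of mean log10 signal above 2.5 whose pattern was most like each member's were sought among 1605 probe sets. Likeness was Pearson's r of log2 signal, given as a description, since the arrays fall into 2 cultivars and any genes that differ between them correlate. CHLP was most like BGLU26 (r = 0.99) and GLK2 (0.98), PORA most like 1 of the 2 OSH1 probe sets (0.98) and OsSSI2 (0.98), and PORB most like LTPL1 (0.99) and BURP3 (0.98). CAO was most like APG4A and ARF1 (0.98 each). CHLG, higher in 93-11 after scaling, was most like OsTLP3 (0.95) and GRF10 (0.93), and CHLH by its _s_at probe set most like IRX9L (0.89) and CSB (0.88). The OSH1 probe set named was lower in 93-11 after scaling (-1.30, limma adjusted p = 4.38e-08), while the other OSH1 probe set was not called (0.15, limma adjusted p = 0.36).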

How the data were processed

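The values deposited by the authors are intensities, 1 linear signal above 0 for each probe set on each array, and the submitters' processing notes name GCOS 1.3. The sources used here give neither the probe summarisation nor a scaling target, and array means differed. No column was left unmapped (0) and 0 pairs of arrays held identical values. Of the probe sets, 123 Affymetrix controls were left out and 57258 were tested. The test was limma 3.58.1 (R 4.3.3) on log2(signal + 16) (eBayes with an intensity trend, 93-11 minus Nipponbare, two-sided), as deposited and after scaling to a common mean trimmed by 2% at each end. The added 16 understates changes of dim probe sets. Ratios used log2 signal with nothing added and exact permutation tests. Probe sets were named through the array annotation, updated by RefSeq. P-values measure the spread between biological replicates as labelled, and the number of arrays limits the precision.

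Members and gene lists were chosen with earlier results of these data known, so their counts beside shares over all probe sets are descriptions, not independent tests. Named were all member probe sets and each other pathway probe set called on either scale. Of the green tissue probe sets called after scaling, up to 2 of largest rise and 2 of largest fall were named. Of 78 symbols and synonyms looked up for the other pathway genes, 53 gave no gene, and a gene for flexible culm that shares the symbol FC1 was removed after the annotation had been seen. Alternatives were other added constants, filters, scalings and eBayes settings, a 2-group ANOVA, a replicate block and leaving out arrays. Scripts were tested on simulated data. Other software was scipy 1.17.1, numpy 2.4.6, matplotlib 3.10.9 and pandas 2.3.3 under Python 3.11.15.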

Additional observations from a re-analysis of the deposited data

Results flagged for a closer look

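In 93-11, replicate 4 was the lowest array for PORA after scaling, at 310.7, and its gap to the next array was 0.748 of the range of the 5 arrays, above Dixon's 95% critical value of 0.71. The same array was the lowest for CHLG after scaling, at 1272.1, with a gap of 0.722 of the range. In all, 32 sets of 5 arrays were examined, and chance alone marks about 1 in 20. PORA was called lower, and scaled CHLG higher, also without this array.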

How the results depend on the processing

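The 5 lower calls held under all 21 alternatives as deposited and all 20 after scaling, and the higher call of scaled CHLG held under all 20, none of which used the hybridization controls (adjusted p 0.00469 to 0.05). As deposited, quantile normalization and trimmed-mean scaling each gave 1 higher member, CHLG, at 0.27 and 0.31, and scaling to the hybridization controls gave it 0.14 with no call (adjusted p = 0.741, 0 members higher), so its higher call depended on the scaling. Leaving out 1 array moved the deposited CHLG difference from -0.15 to 0.10. For the CHLH _s_at probe set quantile normalization gave 0.089 and trimmed-mean scaling 0.054, and the scaled value ran from -0.0225 to 0.12 without 1 array. CHL9 was 0.053 after quantile normalization, chosen after the data had been seen for the scaled fit, from -0.092 to 0.0895 without 1 array when scaled and 0.15 without both arrays numbered 5. For other pathway genes, trimmed-mean scaling gave 5 lower and 2 higher. Leaving out 1 array gave 5 to 8 lower as deposited (5 without 93-11 replicate 2) and 1 to 3 higher after scaling (1 without 93-11 replicate 3, Nipponbare replicate 2 or Nipponbare replicate 3). The CHLH to CHLP ratio was -0.22 with both probe sets averaged. With its _a_at probe set, a setting added later, CHLH changed by -0.61 against PORA, -0.48 against PORB, -1.003 against CAO and -1.24 against CHLP. The change of the PORA to PORB ratio ran from -0.0072 (without 93-11 replicate 5) to 0.25 without 1 array. Leaving out 1 array gave 11 to 13 changed pairs. Replicate numbers were not taken to pair the samples. Over probe sets of mean log10 signal above 2.5, each array's deviations from its cultivar mean were correlated between same-numbered arrays of the cultivars. These correlations of deviations, not of whole arrays, ran from -0.13 to 0.54. Of the 5 numbers 2 matched best, 4 (0.51) and 5 (0.54), and both arrays numbered 5 had the highest actin 3′ to 5′ log2 ratio, 1.05. With the replicate block, limma changed no member call, and 0 pairs passed, because sign flips of 5 pairs give no p under 0.0625. Over all probe sets, 951 were higher and 6788 lower as deposited, 4490 and 5274 after trimmed-mean scaling, and 5772 and 4826 after quantile normalization. Causes were not tested. CHL9 lay far below log10 2.5, so its signal limits any statement on CHL9.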
